A study of Rattus norvegicus with 12 samples.

Results

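The imprinted Dlk1-Dio3 region on rat chromosome 6 carries a long series of miRNA genes, and the 10 assays described here read miRNAs of the stretch from miR-770 to miR-136 on the TaqMan rodent card A, which holds 375 miRNA assays. The card has 14 assays in that stretch, and the 4 that are not members failed the filter on detection given below. The members were found by name, after removal of the mouse prefix and the assay number. They read 8 hairpins, since miR-337 and miR-434 each have an assay for the 5p and for the 3p arm. All 10 passed the filter on detection, which allowed up to 3 undetermined wells among the 10 sorted samples and left 222 of the 375 assays, and 7 of the 10 were determined in every sorted sample.

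The study asked which miRNAs distinguish stellate cells, the layer II neurons of the medial entorhinal cortex (MEC) that project to the dentate gyrus. Long Evans rat pups received the fluorescent tracer DiO in the dentate gyrus at postnatal day 2 (P2), and MEC cells were dissociated and sorted at P4 or P5. Cells with dye made up 5 samples (DiO positive, "stellate" in the labels) and cells without dye 5 samples (DiO negative, here non-stellate). The remaining 2 samples were pieces of MEC dissected at P23, without dye and without sorting. The non-stellate group is defined by absence of dye alone, so it can hold other neurons, glia, vessel cells and stellate cells that took up none.

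Genes of this region are expressed from 1 parental chromosome only. Dlk1, Rtl1 and Dio3 are transcribed from the paternal copy, and the non-coding RNAs Meg3 (Gtl2), Rtl1as and Mirg, which carry the miRNA hairpins, from the maternal copy. The miRNAs that lie opposite Rtl1 can pair with its mRNA along their whole length and direct its cleavage. Many miRNAs of the region are abundant in brain, and miR-134 of the neighbouring miR-379 to miR-410 cluster is known for limiting the growth of dendritic spines.

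The mature sequences are shown because no 2 of them share a seed, the stretch from base 2 to base 8 that pairs with target mRNAs, so that their levels cannot be added up as 1 family. Sequences are the rat entries of RefSeq on build GRCr8, plus strand, written 5′ to 3′ with the seed in capitals. The older names miR-433 and miR-127 stand for the 3p arm of their hairpins. The table held 9 of the 10 members, and miR-136 is given by name only.
miR-770-3p, chr6:134298129-134298145: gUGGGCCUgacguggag
miR-337-5p, chr6:134321170-134321190: cGGCGUCAugcaggaguugau
miR-337-3p, chr6:134321201-134321223: uUCAGCUCcuauaugaugccuuu
miR-665, chr6:134321733-134321754: aCCAGGAGgcugaggucccuua
miR-431, chr6:134326468-134326488: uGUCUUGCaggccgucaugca
miR-433, chr6:134327421-134327442: aUCAUGAUgggcuccucggugu
miR-127, chr6:134328510-134328531: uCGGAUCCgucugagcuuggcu
miR-434-5p, chr6:134330413-134330435: aGCUCGACucaugguuugaacca
miR-434-3p, chr6:134330451-134330472: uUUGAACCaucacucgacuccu

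The 9 sequences held 9 distinct seeds, and none of these occurred in another of the 693 rat mature miRNAs of the table. Their lengths ran from 17 to 23 bases and their GC content from 39.1% in miR-337-3p to 70.6% in miR-770-3p. The hairpins spanned 33.3 kb. By the annotation the miR-770 hairpin lies within Meg3, the hairpins of miR-431, miR-433, miR-127, miR-434 and miR-136 lie within the span of Rtl1, and those of miR-337 and miR-665 lie in between. The assays carry mouse names, and the sequence each probe was made against was not used here.

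Levels are given as Ct, the PCR cycle at which the signal crosses the threshold. Ct is a log2 scale that falls by 1 as abundance doubles, with 40 entered where no signal was determined. The deposited normalized values are Ct minus the mean of 4 wells of U6, a small nuclear RNA. U6 Ct ran from 16.5 to 19.0 in stellate, 17.7 to 20.2 in non-stellate and 15.6 to 16.0 in tissue samples, and 234 to 260, 203 to 241 and 292 to 302 miRNA assays were determined. Because the amount of miRNA relative to U6 differed between the groups, each comparison is given on a second scale as well, on which each sample was centred on the median of those 176 assays that gave a Ct in all 10 sorted samples. Cards carry no molecule count, so the number of samples sets the precision.

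Non-stellate samples 3 and 5 stood apart. They had the fewest determined assays (216 and 203), and they held all 3 undetermined member wells, those of miR-431 and miR-434-5p in sample 3 and of miR-136 in sample 5. Their miR-155 wells read Ct 11.3 and 11.7, against 32.1 to 35.5 in the other sorted samples, and 1 descriptive field calls both labelled although title, source and fluorescence call them unlabelled. They were kept as non-stellate by their titles, and the members' differences between stellate and non-stellate cells, the arm differences and the correlations are also given without one or both of them.

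Within the sorted cells, the members covered almost the whole range of the card. MiR-127 was the member with the lowest Ct in each sorted sample, with 23.4 to 25.2 in stellate and 24.9 to 27.3 in non-stellate samples, which placed it between the 11th and the 26th of 375 assays. MiR-433 and miR-434-3p followed, at Ct 24.4 to 28.7 and 25.04 to 28.1 in stellate samples and 26.8 to 30.04 and 27.3 to 30.2 in non-stellate samples. At the other end, miR-136 read 33.3 to 35.5 in stellate samples and 33.0 to 35.6 in the 4 non-stellate samples where it was determined. MiR-665 was at 31.99 to 35.8 and miR-337-3p at 31.0 to 35.3 over the 10 sorted samples. Assays differ in efficiency, so these Ct values order wells of the card and not molecules per cell.

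**Figure D1:**
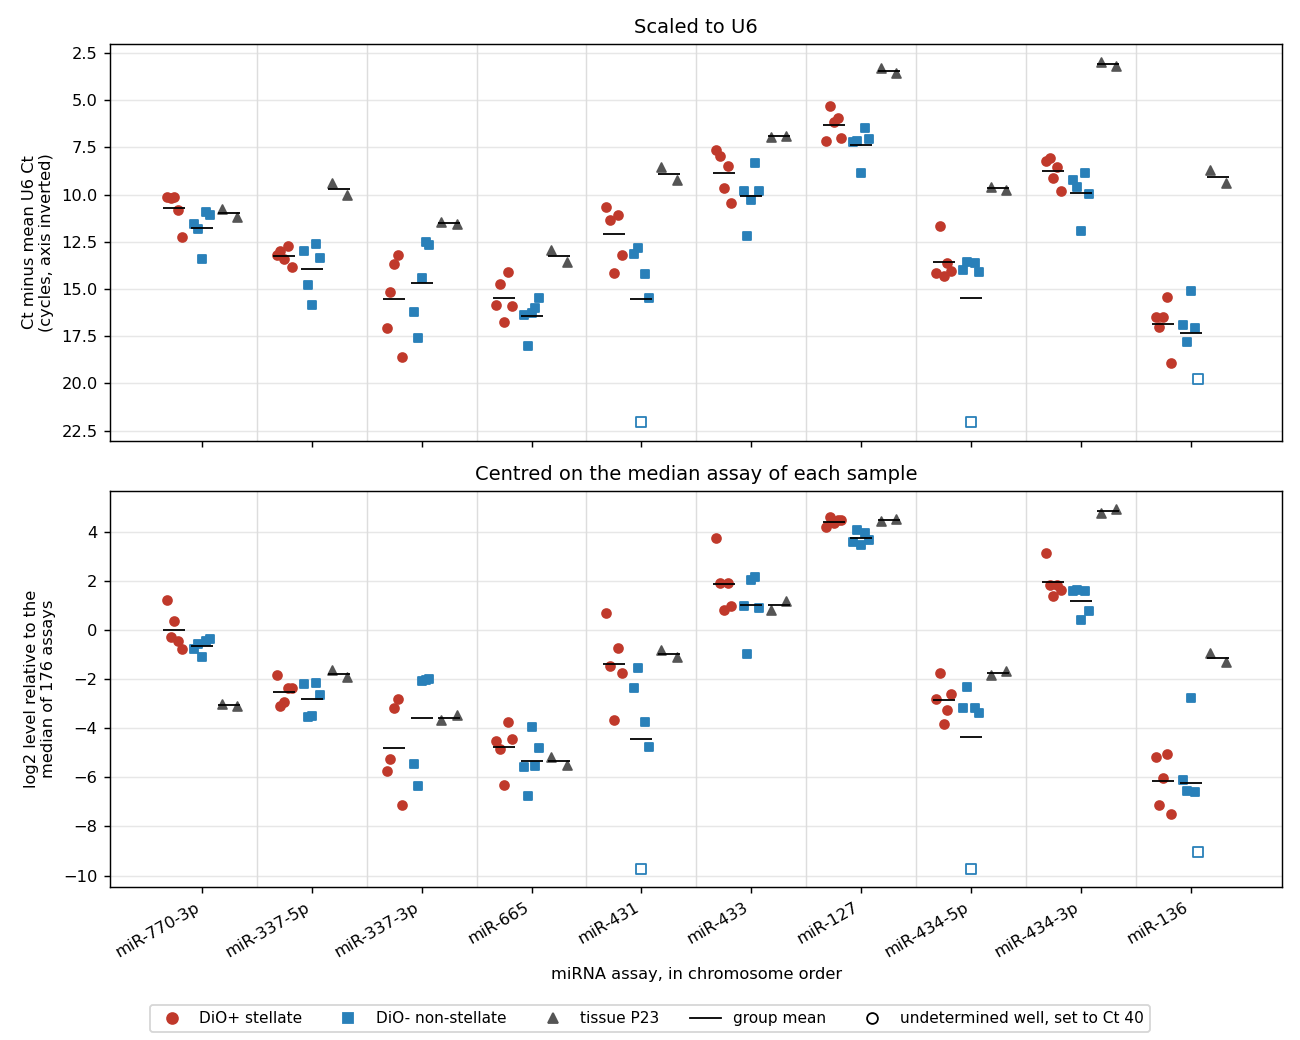
Level of each of the 10 miRNAs in every sample, as Ct minus the mean U6 Ct (upper panel, cycles, axis inverted so that higher points are more abundant) and as log2 level centred on the median assay of the sample (lower panel). Points are samples, black lines are group means, and open squares are the 3 undetermined wells. Against U6 the tissue samples lie above all sorted samples for every miRNA but miR-770-3p, and after centring they do so for miR-434-3p and miR-136 only.

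The first comparison was between stellate and non-stellate cells of the same age and preparation. Relative to U6, 0 of the 10 members passed an adjusted p of 0.05 by limma in either direction, on either scale (0% of the 222 tested assays did). MiR-431 was the 1 member with an unadjusted p below 0.05, on the higher side, as were 6.31% of all tested assays, and 0 members had one on the lower side (0.901%). After median centring miR-127 was the 1 member on the higher side (5.86%), with 0 on the lower side (6.76%). The estimate was above 0 for 9 of the 10 members, and for 73.4% of all tested assays, and miR-337-3p was the exception. The members' median difference was 1.05 on the log2 scale beside 0.46 for all tested assays, and after median centring 0.66 beside 0.07. Without non-stellate 3 and 5 the median relative to U6 was 0.58, beside 0.16 for all tested assays, and 0 members had an unadjusted p below 0.05.

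**Figure D2:**
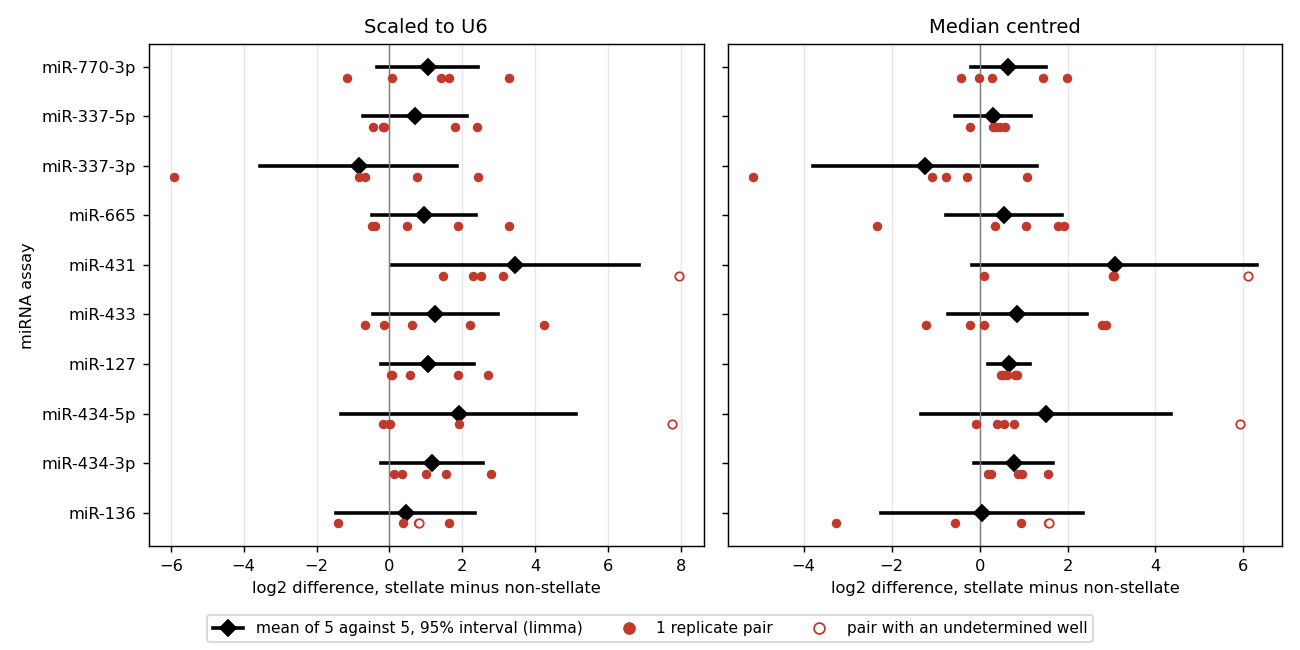
Log2 difference of stellate minus non-stellate for each miRNA, relative to U6 (left) and median centred (right). Diamonds are differences of group means with 95% limma intervals (n = 5 and 5), red points are the 5 replicate pairs, and open points are pairs with an undetermined well. The pairs of miR-127 lie between 0.49 and 0.86 after centring, whereas those of miR-337-3p spread from -5.16 to 1.09.

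MiR-127, the member with the lowest Ct in sorted cells and 1 of the miRNAs opposite Rtl1, showed the smallest spread within groups. Relative to U6 its Ct was 7.16, 5.29, 6.14, 5.92 and 7.0 in stellate samples 1 to 5 and 7.23, 7.18, 8.85, 6.49 and 7.06 in non-stellate samples 1 to 5. The groups overlapped on this scale, although the stellate sample had the lower value in all 5 pairs. The log2 difference was 1.06 ± 0.58 (SE, n = 5 and 5, limma adjusted p = 0.611), and 0.66 without non-stellate 3 and 5. Median centred, its log2 level was 4.19, 4.60, 4.34, 4.46 and 4.46 in stellate samples and 3.57, 4.07, 3.48, 3.97 and 3.65 in non-stellate samples. Here every stellate sample lay above every non-stellate sample, as for 2.7% of the tested assays.

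On the centred scale the difference of miR-127 was 0.66 ± 0.21 (SE), with a 95% interval of 0.19 to 1.14. Its unadjusted p was 0.0114, and over all 222 assays it did not pass (limma adjusted p = 0.343). The exact two-sided permutation test of 5 against 5 gave p = 0.00794, the smallest it allows, and p = 0.0556 relative to U6. It shuffles samples without regard to the replicate pairs. The smallest value restates the complete separation seen on the centred scale and adds no support of its own. For the other members this permutation test gave p = 0.0635 to 0.952 after centring, and these values were not adjusted over the members. Blocking by replicate left miR-127 unpassed (limma adjusted p = 0.110). The SD within groups was 0.213, against a median of 0.730 over the tested assays. Without non-stellate 3 and 5 the centred difference was 0.54 ± 0.27 (SE, limma adjusted p = 0.699).

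MiR-431, another miRNA opposite Rtl1, had the second largest estimate of all 222 tested assays relative to U6. Its Ct minus U6 was 10.7, 11.3, 14.1, 11.1 and 13.2 in stellate samples 1 to 5. In non-stellate samples 1, 2, 4 and 5 it was 13.2, 12.8, 14.2 and 15.5, and in sample 3 it was undetermined, which enters as 22.1. Stellate samples were higher in all 5 pairs, yet stellate 3 and 5 lay within the range of the determined non-stellate samples. The log2 difference was 3.46 ± 1.56 (SE, n = 5 and 5, unadjusted p = 0.0466, limma adjusted p = 0.587). With the replicate block the SE was 0.92, and miR-431 did not pass either (limma adjusted p = 0.269). The difference rested in part on the undetermined well, since the mean of the 4 determined pairs was 2.34 and the difference without non-stellate 3 and 5 was 1.31 ± 0.85 (SE, limma adjusted p = 0.991).

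MiR-434-3p was higher in the stellate sample of all 5 pairs too, by 0.13 to 2.80 relative to U6 and by 0.20 to 1.56 after centring. A higher stellate value in all 5 pairs was found for 3 of the 10 members on either scale (miR-431, miR-127 and miR-434-3p), and for 10.8% of the tested assays relative to U6 and 11.7% after centring. Its Ct minus U6 was 8.22, 8.06, 9.12, 8.53 and 9.82 in stellate samples and 9.22, 9.61, 11.9, 8.88 and 9.94 in non-stellate samples. The groups overlapped, and the log2 difference of 1.17 ± 0.65 (SE) had a limma adjusted p of 0.611. It was 0.67 without non-stellate 3, and 0.49 ± 0.56 (SE, limma adjusted p = 0.991) without non-stellate 3 and 5. With the replicate block and median centring, these 3 members were at an unadjusted p below 0.05, as were 10.8% of all tested assays on the higher side, and none passed adjustment (smallest limma adjusted p = 0.110).

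The other members did not separate the sorted groups. MiR-770-3p, from within Meg3, differed by 1.05 ± 0.63 (SE), with a 95% interval of -0.33 to 2.44. MiR-433 differed by 1.26 ± 0.78 and miR-665 by 0.95 ± 0.65, each above 0 in 3 of 5 pairs. For miR-337-5p the difference was 0.69 ± 0.65, above 0 in 2 of 5 pairs, and for miR-337-3p it was -0.85 ± 1.24, with single pairs from -5.91 to 2.44. MiR-434-5p differed by 1.90 ± 1.48, but by 0.44 over the 4 pairs in which both samples were determined. MiR-136 differed by 0.45 ± 0.88, and over its 4 determined pairs by 0.35. The 95% intervals of these 7 members all included 0, and their upper ends ran from 1.86 for miR-337-3p to 5.14 for miR-434-5p.

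Leaving out samples moved several of these estimates by more than 1.5 times. Without non-stellate 3 and 5 the difference was 0.72 for miR-770-3p, 1.28 for miR-433, 1.31 for miR-665, 0.24 for miR-337-5p, -0.09 for miR-337-3p, 0.16 for miR-434-5p and 0.38 for miR-136. Without non-stellate 3 alone it was 0.63 for miR-770-3p, 0.21 for miR-337-5p, 0.25 for miR-434-5p and 1.00 for miR-136. Replicate 3 left out as a pair gave 0.49 for miR-770-3p, and replicate 5 left out gave 1.61. Without replicate 2 the difference was 0.37 for miR-665 and 0.51 for miR-433. MiR-337-3p ranged from -1.67 without replicate 2 to 0.42 without replicate 5.

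The second comparison set the P23 tissue against the mean of both sorted groups. Age (P23 against P4 or P5), sorting and the RNA extraction kit changed together, so they cannot be told apart, and in tissue, fewer cells of a type and less RNA per cell cannot be told apart either. Relative to U6, 9 of the 10 members were up-regulated in tissue by limma (62.2% of the tested assays were) and 0 were down-regulated (1.35%). Both tissue samples lay above all sorted samples for these 9 (68% of the tested assays). The members' median difference was 3.75 beside 3.02 for all tested assays. After median centring, 2 members were up-regulated (23.9% of tested assays), miR-434-3p and miR-136, and 1 was down-regulated (25.2%), miR-770-3p. The same 2 lay above all sorted samples (27%), and miR-770-3p below all of them (26.1%). The median was then 0.76 beside 0.03.

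**Figure D3:**
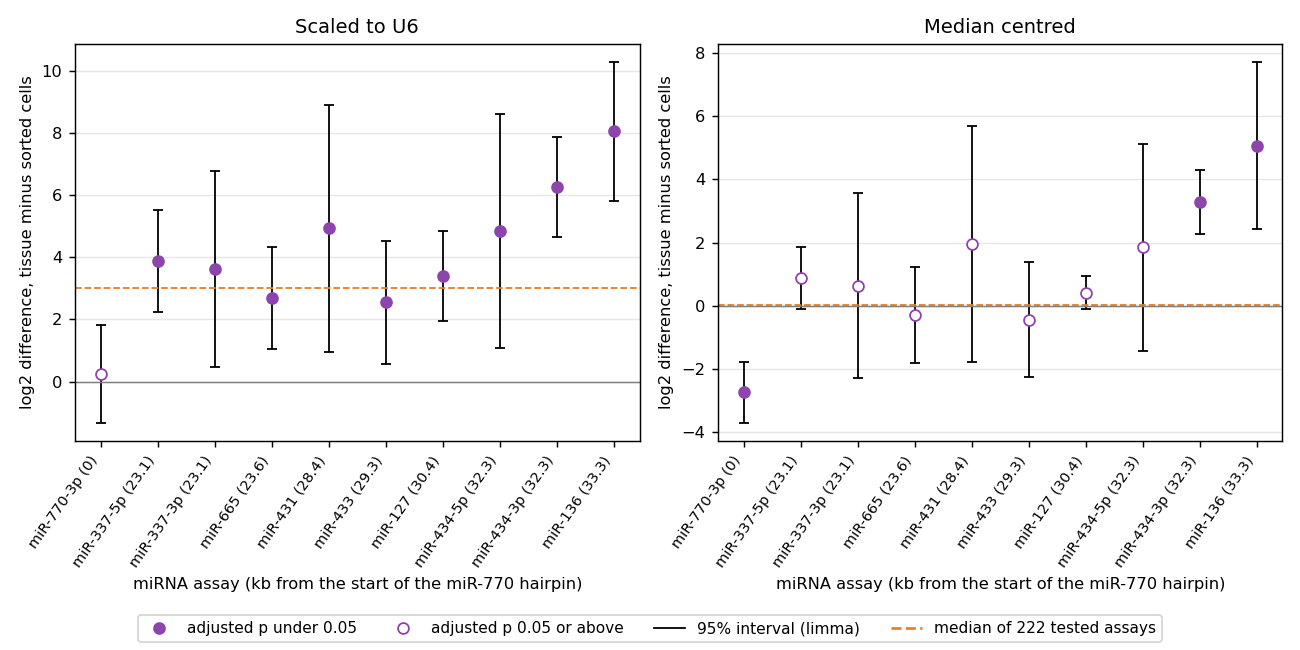
Log2 difference of tissue minus sorted cells for each miRNA in chromosome order, relative to U6 (left) and median centred (right). The number after each name is the distance in kb from the start of the miR-770 hairpin, bars are 95% limma intervals, filled points passed an adjusted p of 0.05, and the dashed line is the median of the 222 tested assays. MiR-770-3p lies lowest and miR-136 highest. Centring shifts every assay by the same amount here, so the order is the same on both scales by construction.

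MiR-136, the last hairpin of the stretch, had the largest difference among the members and the sixth largest of all tested assays. Its Ct minus U6 was 16.5, 17.0, 16.5, 15.4 and 18.9 in stellate samples 1 to 5 and 16.9, 17.8, 15.1 and 17.1 in non-stellate samples 1 to 4. The undetermined well of non-stellate 5 enters as 19.8. The tissue samples were at 8.70 and 9.39, below every sorted sample. The log2 difference was 8.06 ± 1.03 (SE, n = 2 against 10, limma adjusted p = 4.92e-05), and 5.07 ± 1.2 after centring (limma adjusted p = 0.00496).

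MiR-434-3p, the 3p arm of a hairpin opposite Rtl1, was among the top assays of the card in tissue. By Ct it was between the 39th and the 80th assay in sorted samples and the 8th and 9th in tissue. Its Ct minus U6 was 8.06 to 9.82 in stellate samples, 8.88 to 11.9 in non-stellate samples and 2.97 and 3.17 in tissue. The tissue samples lay apart from all sorted samples, with a log2 difference of 6.26 ± 0.74 (SE, n = 2 against 10, limma adjusted p = 3.20e-05). Centred, its log2 level was 4.77 and 4.93 in tissue against 0.41 to 3.13 over the sorted samples, a difference of 3.27 ± 0.46 (SE, limma adjusted p = 0.000180).

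MiR-770-3p behaved differently from the other 9. Its Ct minus U6 was 10.1, 10.2, 10.1, 10.8 and 12.3 in stellate samples, 11.6, 11.8, 13.4, 10.9 and 11.1 in non-stellate samples and 10.8 and 11.2 in tissue. The tissue values lay inside the range of the sorted samples, and the difference of 0.25 ± 0.73 (SE, n = 2 against 10, limma adjusted p = 0.766) was under the median of the tested assays and became 0.09 without non-stellate 3 and 5. After centring the direction turned, to -2.74 ± 0.44 (SE, limma adjusted p = 0.000445), with -3.02 and -3.10 in tissue against -1.10 to 1.2 in sorted cells. Its place by Ct was between 70 and 116 in sorted samples and 173 and 178 in tissue.

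A gap between 2 assays of the same sample needs no reference RNA. The Ct of miR-136 exceeded that of miR-770-3p by 4.60 to 6.84 cycles in stellate samples and by 1.66 to 6.15 in the 4 determined non-stellate samples, while in tissue it was below it, by -2.06 and -1.82 cycles. These assays were chosen after their values had been seen, as the lowest and the highest of the tissue comparison, so the gap is a description. In the same way miR-434-3p stood 1.05 to 3.07 cycles behind miR-127 in the sorted samples, and -0.40 and -0.32 cycles in tissue.

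The 7 remaining members were up-regulated relative to U6, and none of them passed after centring. MiR-431 differed by 4.94 ± 1.84 (SE) and miR-434-5p by 4.84 ± 1.74, both with the undetermined well of non-stellate 3 included, and without non-stellate 3 and 5 by 3.86 and 3.97. For miR-337-5p the difference was 3.87 ± 0.76 and for miR-337-3p 3.63 ± 1.46. MiR-127, among the top assays in sorted cells and in tissue, differed by 3.40 ± 0.67 and after centring by 0.41 ± 0.24 (limma adjusted p = 0.179). MiR-665 and miR-433 differed by 2.70 ± 0.76 and 2.55 ± 0.91, below the median of the tested assays, and after centring by -0.29 ± 0.69 and -0.44 ± 0.83.

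Along the chromosome the difference was lowest at the first hairpin and highest at the last. Spearman's rho of position with the tissue difference was 0.66 over the 10 assays, which share samples and, for 2 hairpins, a position. Without miR-770-3p and miR-136 it was 0.33 over 8 assays, so the order rested largely on the ends of the stretch. For stellate minus non-stellate relative to U6, rho was 0.30.

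The tissue samples resembled each other more closely than any other samples did. Over 230 assays the SD of their difference was 0.389 cycles. For the difference of 2 U6 wells, 0.518 cycles was computed from an SD of 0.366 pooled over all 12 samples. The tissue samples had lower SDs among their own U6 wells, 0.0309 in tissue 1 and 0.286 in tissue 2. The pooled value therefore cannot show whether they were closer than repeated wells of tissue RNA. They were counted as 2 because the labels give 2 biological replicates. Counted as 1 sample, 4 members passed relative to U6 in place of 9, namely miR-337-5p, miR-127, miR-434-3p and miR-136. The share of all tested assays that passed under this setting is not given here.

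Markers of cell types were also compared between tissue and sorted samples. Over all tested assays, 23.9% were higher and 25.2% lower in tissue after centring. Relative to U6, the scale of the sums below, the median tested assay was already 3.02 higher in tissue. The oligodendrocyte miRNAs miR-219 and miR-338-3p were undetermined in 8 and 7 of the 10 sorted samples and read Ct 25.1 to 29.0 in tissue, and neither was tested. Their summed level relative to U6 (given for each list, in the same order of groups) was -21.1 to -16.8 on the log2 scale in stellate, -21.3 to -13.4 in non-stellate and -9.90 to -9.03 in tissue samples. Of the 4 vessel markers, 2 were higher in tissue after centring, and their summed level was -10.2 to -5.96, -11.0 to -8.05 and -3.52 to -2.99. Of 6 markers of blood and microglia, 4 were tested and 1 was higher after centring, with miR-142-5p and miR-451 undetermined in all sorted samples and present in tissue. Their sum in stellate samples was -9.62 to -5.27 and in tissue -4.60 to -4.32, and in non-stellate samples it reached 8.52 through miR-155. Of 6 choroid plexus and ependyma markers, 4 were tested, and after centring 1 was higher and 2 were lower in tissue, with sums of -9.30 to -6.44, -10.4 to -7.95 and -5.35 to -5.29. The 5 neuronal markers were determined in every sorted sample and 2 were higher in tissue after centring, with sums of -3.06 to -1.84, -4.21 to -1.44 and 0.49 to 0.91. None of the tested markers passed between stellate and non-stellate cells, and the part of these markers in the members' differences was not tested.

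The hairpins with assays for both arms allow a comparison within a sample, as Ct of the 3p arm minus Ct of the 5p arm. A Dicer-processed hairpin can leave either arm in the silencing complex, and the other arm is usually degraded. In miR-434 the 3p arm had the lower Ct in all 12 samples. The difference was -5.93 to -3.60 cycles in stellate samples, -4.75 to -3.96 in the 4 determined non-stellate samples, and -6.60 in both tissue samples. In non-stellate 3, where the 5p arm was undetermined, it stood at -10.2.

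For miR-434 the arm difference of tissue minus sorted cells was -1.42 cycles (exact two-sided permutation p = 0.303 over 66 splits, with 0.0152 the smallest possible, adjusted over both hairpins 0.606). Without the undetermined sample it was -1.97 (exact permutation p = 0.0182, the smallest that 55 splits allow, adjusted over both hairpins 0.0364), with both tissue samples below all 9 sorted samples. The sample left out had an entered value of -10.2, below tissue, because its 5p arm was too low to read. Its removal thus depends on the outcome, and this p-value cannot decide whether tissue differed. Between stellate and non-stellate cells the arm difference was 0.74 (exact permutation p = 0.794), and -0.41 without the undetermined sample. For miR-337 the arms were close and variable, at 0.23 to 4.79 cycles in stellate, -1.43 to 3.25 in non-stellate and 1.53 to 2.04 in tissue samples. Tissue differed from sorted cells by 0.24 cycles (exact permutation p = 0.909) and stellate from non-stellate cells by 1.54 (exact permutation p = 0.254).

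**Figure D4:**
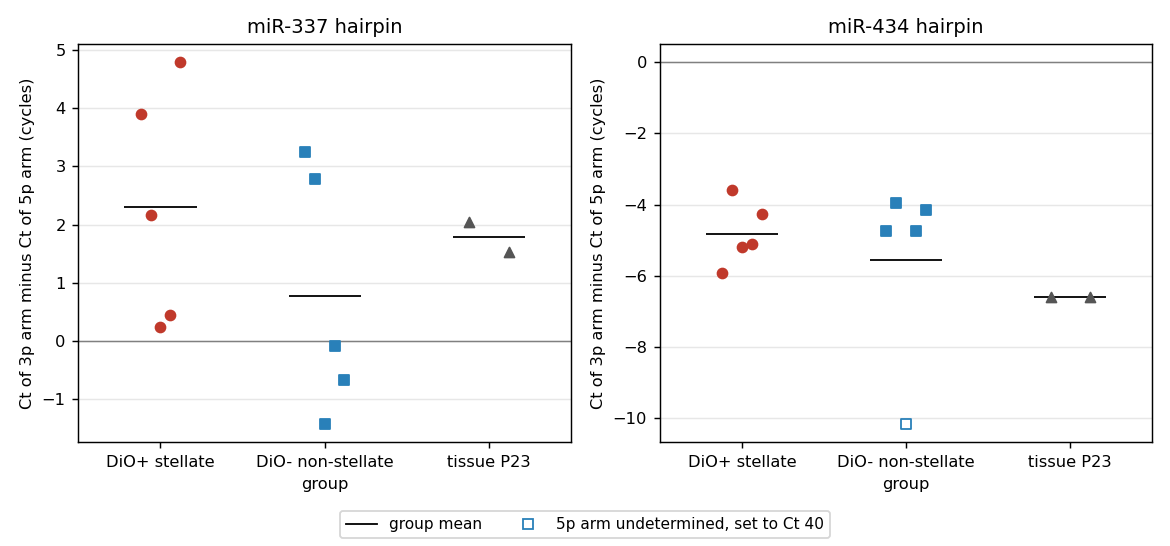
Ct of the 3p arm minus Ct of the 5p arm (cycles) within each sample for the miR-337 (left) and miR-434 (right) hairpins. Points are samples, black lines are group means, and the open square is non-stellate 3, whose 5p arm was undetermined. For miR-434 both tissue samples stand at -6.60, below the 9 sorted samples with both arms determined.

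The miRNAs of the region are thought to be cut from long maternal transcripts, so the members were also compared for how they varied together among sorted samples. After centring and removal of group means, the median Pearson r over the 21 pairs of the 7 members determined in all 10 sorted samples was 0.13, against 0.034 over all pairs of the 176 assays. The miR-379 to miR-410 cluster with its flanks gave 0.36 over 153 pairs, and pairs of 1 member and 1 miRNA of that cluster 0.12. Relative to U6 the medians were 0.54, 0.75 and 0.60, and 0.60 over all assays, on a scale where all assays of a sample share its U6 value. Without non-stellate 3 and 5 the centred medians were 0.18 for the members, 0.30 for the cluster, 0.18 between them and 0.048 over all assays, and those relative to U6 0.57, 0.62, 0.58 and 0.53. MiR-433 followed the mean of the other members most closely (r = 0.77), and miR-127 had a negative r with the mean of the others (-0.46). Without non-stellate 3 and 5 the values were 0.81 and -0.35. The centred SD of miR-127 within groups was 0.213, below the pooled SD of 0.366 cycles among U6 wells. Its r therefore describes variation no larger than that between wells of U6. The assays most like the members' mean were miR-133a (r = 0.80), let-7e (0.71), miR-199a-3p (0.71), let-7g (0.66) and miR-34b-3p (0.64), none of which lies in the region, and their r was 0.77, 0.77, 0.68, 0.72 and 0.62 without these samples. These values come from 10 samples that share 5 suspensions, and are given as a description.

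Of the other miRNAs of the region, 4 assays lie in the same interval (miR-493, miR-540-3p, miR-540-5p and miR-673), and 0 of them passed the filter on detection. Of 38 assays of the miR-379 to miR-410 cluster with its flanks, 24 were tested. Between stellate and non-stellate cells 0 of them passed (0% of all tested assays), with a median difference of 1.10 relative to U6, beside 0.46. The smallest p-values there belonged to miR-544 (log2 difference 3.32), miR-409-3p (1.60) and miR-134 (1.23), each with a limma adjusted p of 0.587. In tissue, 19 of the 24 were higher and 0 lower relative to U6 (62.2% and 1.35% of all tested assays), with a median of 4.49 beside 3.02. After centring 12 were higher and 3 lower (23.9% and 25.2%), with a median of 1.5 beside 0.03. The smallest p-values relative to U6 were those of miR-410, miR-376a and miR-495, with log2 differences of 6.87, 7.96 and 4.85 (limma adjusted p = 1.34e-05, 2.32e-05 and 4.84e-05). The tissue differences of this neighbouring cluster thus had a higher median than those of the 10 members. Centring shifts the tissue difference of every assay by the same amount, so the second scale adds nothing to this order. The difference between the lists was not tested.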

How the data were processed

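Per the labels, RNA of sorted cells (RNAqueous Micro kit) and of tissue (mirVana kit) was reverse transcribed and pre-amplified with Megaplex primers and read on the TaqMan rodent card A, with single wells apart from U6. For whole MEC tissue the study's methods name a Norgen kit instead. The authors' deposited tables hold log2 scale values: raw Ct with 40 for undetermined wells, and normalized Ct, which equalled Ct minus the mean of the 4 U6 wells (largest difference 5.33e-15). The deposited fold-change and limma tables hold the authors' own comparisons and were not used.

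The 222 miRNA assays with up to 3 undetermined wells among sorted samples were fitted with limma 3.58.1 (R 4.3.3, two-sided moderated test, p-values adjusted by Benjamini-Hochberg over all 222, threshold 0.05) on minus normalized Ct, without a block: stellate against non-stellate on 10 samples, and tissue against the mean of both sorted groups on 12. Arms were compared by exact permutation of samples. The members, lists and markers were chosen with earlier results of these data known. Named were all members, the 3 smallest p-values of each other list and the 5 assays most like the members by Pearson r. The procedure was tested on simulated data.

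Per the labels, labelled and unlabelled cells came from 5 biological replicates, so equal numbers were read as pairs. Deviations from group means correlated within pairs 1 to 5 at 0.331, 0.119, 0.256, 0.155 and 0.0743, against -0.0481 for other numbers. Sequences and neighbouring genes come from RefSeq (GRCr8). The precision of 1 well is known from U6 only (pooled SD 0.366 cycles).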

Additional observations from a re-analysis of the deposited data

Results flagged for a closer look

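Of 24 groups of 5 values examined for a sample far from the others (10 miRNAs and the arm differences of 2 hairpins, in stellate and in non-stellate samples), 4 held one, where chance gives about 1.2. In non-stellate 3, Ct minus U6 of miR-431 was 22.1, with the next sample at 15.5, and that of miR-434-5p was also 22.1, with the next at 14.1. Both wells were undetermined and stand at the entered Ct of 40. The arm difference of miR-434 in the same sample, -10.2 cycles with the next at -4.75, rests on the same undetermined well. In stellate 2, miR-434-5p was at 11.7 relative to U6, with the next sample at 13.6, in a determined well.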

How the results depend on the processing

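Between stellate and non-stellate cells 0 members passed under any of the 33 alternatives, the replicate block included (0, as without it), and the members' median stayed above 0 (0.46 to 1.84). Over both comparisons 505 of 574 values of single members kept direction and side of the threshold, 48 lost significance and 21 reversed. In sorted cells miR-136 turned to -0.17 with undetermined wells missing and without non-stellate 5, to -0.55 with Ct capped at 35, and to -0.66 and -0.33 with wells missing after centring, without and with the block. With single samples or replicates left out, miR-136 ranged from -0.17 to 1.00 and miR-337-3p from -1.67 to 0.42, the latter without replicate 5.

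The tissue comparison depended on the scaling. In the main setting 9 members passed, all higher (62.2% of the tested assays). With median centring 3 passed, miR-434-3p and miR-136 higher (23.9%) and miR-770-3p, not among the 9, lower (25.2%). The count was also 3 with centring without non-stellate 3 and 5 and with Y1 alone. It was 4 with centring and wells missing, 5 with the global mean and 7 with snoRNA202 alone (miR-665 and miR-433 lost). Against stellate alone it was 6, and with tissue as 1 sample 4. With single replicates left out it was 4 to 9, the lowest counts (4 and 5) without tissue 1 or tissue 2. These counts join both directions. The share of all tested assays is not given for them, so they do not set the members apart from the card. The duplicateCorrelation block gave 9, and no block changed a call of a member. The median of 3.75 became 0.76 with centring (also with wells missing), 0.90 with centring without non-stellate 3 and 5, 1.07 with the global mean and 0.25 with Y1. MiR-770-3p reversed to -2.74 with centring (also with wells missing), -2.76 without non-stellate 3 and 5, -2.42 with the global mean, -3.25 with Y1 and -0.27 against stellate alone. MiR-433 reversed to -0.44, -0.29, -0.13 and -0.96 under the first 4 of these, miR-665 to -0.29 and -0.80 with centring and Y1, and miR-127 to -0.10 with Y1. MiR-434-3p passed under all 25 alternatives and miR-136 under the 24 in which it was tested.

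The arm difference of miR-337 in tissue ranged from -0.29 to 0.75 with single replicates left out and was -0.40 without non-stellate 3 and 5. That of miR-434 ranged from -2.04 to -1.07, and was -1.97 (exact permutation p = 0.0182) without the undetermined sample and -1.91 (p = 0.0222) without non-stellate 3 and 5. Both settings leave out non-stellate 3, the sample with the lowest entered value, so neither p-value decides whether tissue differed. Between sorted groups the miR-434 difference reversed to -0.41 and -0.33 under these settings, with -0.32 to 1.22 over single replicates left out. As pairs in the replicate block the arm differences had exact sign-flip p = 0.188 and 0.813. Correlations without non-stellate 3 and 5, wells missing combined with centring or block, centring without non-stellate 3 and 5, and tissue as 1 sample were chosen after seeing the data. The cause of these changes was not tested, and with 2 tissue samples, single wells and members near Ct 35, precision is limited.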
